A study of Mus musculus with 3 samples.

Results

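The genes described here are 56 mouse genes that make ribosomes: subunits of RNA polymerase I and its initiation factor Rrn3, proteins of the small nucleolar RNA particles, and factors that process ribosomal precursor RNA and assemble the small and the large ribosomal subunit. They are 56 of the 27724 genes on the array, measured by 95 of 41167 probes. The 56 names were selected on earlier results of the same 3 arrays and the same comparisons between untreated and exposed cells, in which many of them stood high at 1 uM. The differences below therefore describe the chosen genes, carry no test, and cannot count as evidence for the choice. All 56 were found on the array, several under an older symbol (Nol5a for Nop56, Nol5 for Nop58).

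The study exposed C3H10T1/2 cells, a mouse embryo fibroblast line used in assays of cell transformation, to hexavalent chromium, Cr(VI). Cells were seeded at 2000 per flask in 3 flasks per group. The groups were untreated cells, cells given 0.01 uM Cr(VI) and cells given 1 uM Cr(VI). Exposure began 24 h after seeding and lasted 48 h, after which the cells were washed and grown without Cr(VI), and part of them went to RNA isolation after 15 days, so the arrays describe cells long after exposure had ended. All groups share the cell line, the medium and the washing steps. The labels leave unstated if the flasks of a group were combined into its RNA sample. Each group has 1 array of total RNA labelled with Cy3, so no difference has a replicate check. The error given with a difference is 1 SE from the scanner's error model, which covers the spot only and not the spread between cultures.

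Ribosomes are built mostly in the nucleolus. RNA polymerase I transcribes the ribosomal DNA repeats into a long precursor RNA, small nucleolar RNA particles guide its methylation and pseudouridylation, and large assemblies of proteins fold and cut it while ribosomal proteins bind. Cells make more of this machinery when they grow and divide, and the transcription factor Myc is a known activator of many of its genes.

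Signals are given as log2 of the processed intensity minus the array's own 75th percentile, so 0 is the 75th percentile of all probes on that array and a step of 1 is 2-fold. Levels are given in the order untreated, 0.01 uM, 1 uM throughout. Fold changes compare a probe with itself on another array. Of the 56 genes, 54 were well above background on at least 1 array and 50 on all 3, against 12475 and 10575 of all 27724 genes. Dkc1, the pseudouridine synthase of the H/ACA particles, and Ltv1, which helps export the small subunit, were not well above background on any array. Imp4, a small subunit processing factor, was above it only in untreated cells, and Utp14a, another such factor, only at 1 uM. Over the whole array, 41.8% of probes were well above background in untreated cells, 36.4% at 0.01 uM and 41.5% at 1 uM. The median SD between replicate spots of a probe was 0.057 to 0.062 on the log2 scale. As a check of the labelled cell type, 12 fibroblast and mesenchymal markers were read. Of these, 12, 12 and 11 were above background on the untreated, 0.01 uM and 1 uM arrays, with a summed log2 level of 9.43, 9.74 and 8.98. At 1 uM, 5 of the 12 were at least 1.5-fold lower than in untreated cells, against 13.4% of all genes, and 2 at least 2-fold lower, against 4.86%. Only 7 of the 12 were measured on both arrays without saturation. The lowest of the 7, Pdgfrb at -0.85, lies within 1.5-fold under the spike-in scaling described below. The 2 markers past 2-fold are not among the 7, and their differences are minimum values. Of 8 leukocyte markers, 1, 1 and 2 were above background, with a summed level of 2.20, 2.14 and 2.21, while Ptprc, Tyrobp, Laptm5, Cd53, Csf1r and Fcer1g were above it on no array. None of 6 epithelial markers was above background on any array, and of 6 endothelial markers only Cdh5 was, at 1 uM. The summed levels on the 3 arrays were -2.28, -1.67 and -2.22 for the epithelial list and -2.21, -1.60 and -0.68 for the endothelial list. The part of these marker levels and of the detection shares in the results was not tested.

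At 1 uM, the levels of most ribosome biogenesis genes lay above those of untreated cells, led by Polr1b, Heatr1 and Polr1e, and 4 measured genes lay below on the 75th-percentile scale (Npm1, Polr1c, Nop10 and Noc4l). Of the 54 that could be compared, 24 (44.4%) reached 1.5-fold higher, and 12 (22.2%) of them 2-fold. The background over all 12452 genes compared was 13.9% past 1.5-fold and 5.67% past 2-fold in that direction. In the other direction, 0 of the 54 reached 1.5-fold, against 13.4% of all genes, and 0 reached 2-fold, against 4.86%. Because the genes were chosen on these comparisons, nothing is read from that gap or from those in the other comparisons. The median difference was 0.54 over the 50 genes measured on both arrays, with the middle 50% of genes between 0.28 and 0.98. The median over all genes was -0.033. Of the 50, 46 lay above 0 and 4 below. The median SE of these differences was 0.205.

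At 0.01 uM the same genes, where measured on both arrays, were close to their untreated levels. Of 53 compared, 0 reached 1.5-fold in either direction, where the background was 0.898% higher and 1.13% lower among 11916 genes. Only 50 of the 53 were measured on both arrays. Imp4, Rrp12 and Noc3l were detected on the untreated array alone of the pair, below the lowest detected signal of the 0.01 uM array (-2.11). They count as no difference and could not pass. The 2-fold counts were also 0 in both directions, with a background of 0.269% higher and 0.168% lower. The median was -0.042 over 50 genes, against 0.055 over all genes, and single differences ran from -0.53 for Utp15 to 0.16 for Noc4l. A spike-in scaling put this median at 0.26, so its sign depends on the scaling.

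Set against 0.01 uM, the 1 uM array was higher by 1.5-fold or more for 30 of 53 genes (56.6%) and by 2-fold or more for 14 (26.4%), where 12.4% and 5.2% of all 12060 genes were. None of the 53 was lower by 1.5-fold or by 2-fold, against 17.3% and 6.45% of all genes. The median of this difference was 0.67 over 48 genes, against -0.11 over all genes. The 2 dose comparisons share the untreated array, and this comparison reuses both dose arrays, so the 3 comparisons are not independent. On the 1 uM array 24 of 53 genes (45.3%) lay at least 1.5-fold above both other arrays, against 9.84% of 12037 genes, and 0 lay 1.5-fold below both, against 12.2%.

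The scaling sets where 0 lies. With scaling on 5 unsaturated spike-in RNAs in place of the 75th percentile, the median of all genes at 1 uM moved from -0.033 to 0.64. The split of all genes past 1.5-fold then went from 1732 higher and 1670 lower to 6699 higher and 360 lower. Under that scaling 51 ribosome biogenesis genes passed 1.5-fold upward, as did 53.8% of all genes, and their median lay above that of all genes by the same 0.58 as before. It adds 0.68 to every log2 difference between 1 uM and untreated cells and 0.30 to every one between 0.01 uM and untreated, so a negative difference smaller in size than that has the opposite sign under it. Without that scaling, under the other 4, the median of all genes at 1 uM stayed between 0.027 and 0.033.

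Of the 48 genes measured on all 3 arrays without saturation, 43 (89.6%) had their highest level at 1 uM, 4 (8.33%) at 0.01 uM and 1 (2.08%) in untreated cells. Over 10340 genes of the array the shares were 38.3%, 46.3% and 15.4%. On this scale the lowest level was at 0.01 uM for 29 of the 48, in untreated cells for 16 and at 1 uM for 3. Over all 10340 genes it was at 0.01 uM for 2431, in untreated cells for 2538 and at 1 uM for 5371. In bulk RNA, more cells that express a gene and more of its RNA per cell cannot be told apart.

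**Figure D1:**
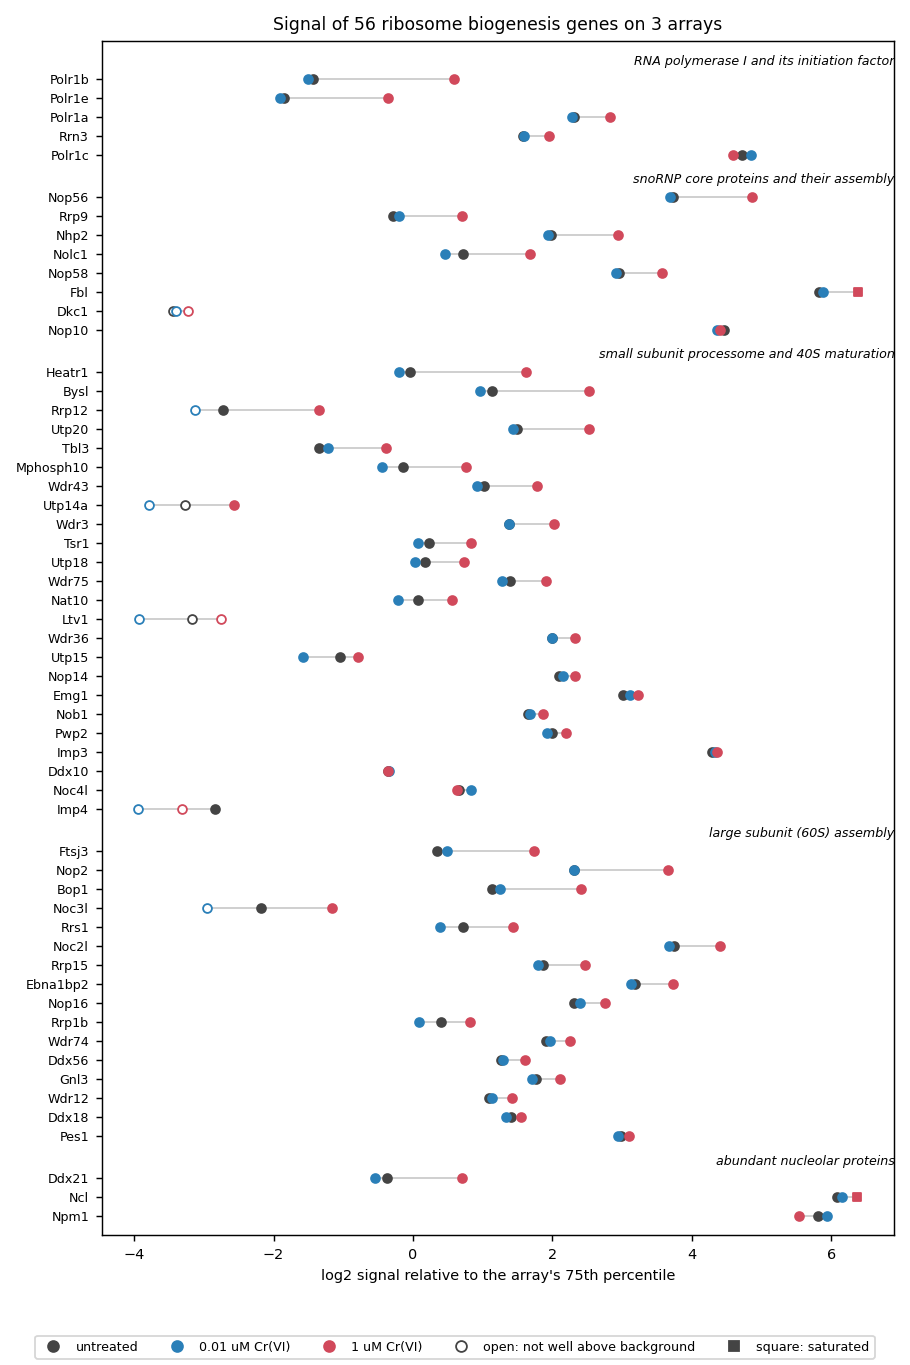
Log2 signal relative to the array's 75th percentile (horizontal axis) for each of the 56 genes (rows, by function), with 1 point per array for untreated cells, 0.01 uM and 1 uM Cr(VI); open points were not well above background and squares were saturated. The 1 uM point lies to the right of the others in most rows and is the highest of the 3 in 43 of the 48 unsaturated genes measured on all arrays. The untreated and 0.01 uM points lie close together in most rows. They lie further apart in some, such as Imp4 (-2.84 and -3.95), Noc3l (-2.19 and -2.96) and Utp15 (-1.05 and -1.57).

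**Figure D2:**
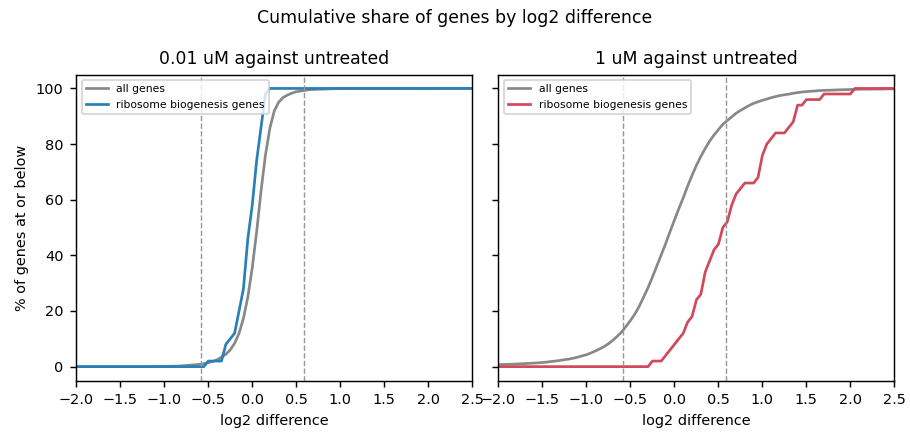
Cumulative share of genes (vertical axis, %) at or below a given log2 difference from untreated cells (horizontal axis), for all genes in grey and the ribosome biogenesis genes in colour, at 0.01 uM and at 1 uM; dashed lines mark 1.5-fold. At 1 uM the curve of the chosen genes lies to the right of the grey curve (medians 0.54 and -0.033), and at 0.01 uM both curves are steep and centred near 0 (medians -0.042 and 0.055).

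Since these genes were high together on 1 array, their promoters were read for CACGTG, the E-box hexamer bound by Myc with Max and by related factors. This palindrome reads the same on both strands. RefSeq promoter windows of 300 bases (250 before to 50 after the transcript start, assembly GRCm38.p6) were matched for 49 of the 56 genes. The hexamer stood in a window of 9 of the 49 (18.4%), against 2187 of all 27025 genes with a window (8.09%), 1559 of 17492 protein-coding genes (8.91%) and 1053 of the 8805 genes with a window that were compared at 1 uM (12%). Among the chosen genes it stood in 4 of 20 (20%) that passed 1.5-fold at 1 uM and in 4 of 27 (14.8%) that were compared and did not. Of all genes with a window that were at least 1.5-fold higher at 1 uM, 101 of 1004 (10.1%) had it. The 9 genes are Imp4, Nop2, Utp18, Rrn3, Ltv1, Utp20, Pes1, Tsr1 and Wdr43. The median GC content was 58.3% over the 53 windows of these genes and 61% over the windows of all genes compared at 1 uM. A match is a description of the letters in the window, and its part in any difference was not tested.

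The windows below are those of 4 genes with the hexamer, 3 of them past 1.5-fold at 1 uM and Rrn3 with 2 copies, and that of Polr1b, which had the largest difference at 1 uM and no copy in its window. Each is written 5′ to 3′ on the gene's strand, with CACGTG in capitals.
Nop2: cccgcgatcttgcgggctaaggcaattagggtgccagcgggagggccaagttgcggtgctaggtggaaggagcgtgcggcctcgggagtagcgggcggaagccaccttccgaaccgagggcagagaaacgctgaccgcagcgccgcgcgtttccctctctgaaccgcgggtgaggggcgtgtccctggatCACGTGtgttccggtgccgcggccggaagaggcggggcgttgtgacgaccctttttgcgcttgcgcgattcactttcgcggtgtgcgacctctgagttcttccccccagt
Utp20: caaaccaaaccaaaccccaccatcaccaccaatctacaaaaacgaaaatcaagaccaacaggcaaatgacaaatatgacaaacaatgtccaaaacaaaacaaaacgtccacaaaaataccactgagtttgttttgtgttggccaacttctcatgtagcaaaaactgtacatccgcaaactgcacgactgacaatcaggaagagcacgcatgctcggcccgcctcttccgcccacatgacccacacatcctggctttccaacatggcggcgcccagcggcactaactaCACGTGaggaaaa
Wdr43: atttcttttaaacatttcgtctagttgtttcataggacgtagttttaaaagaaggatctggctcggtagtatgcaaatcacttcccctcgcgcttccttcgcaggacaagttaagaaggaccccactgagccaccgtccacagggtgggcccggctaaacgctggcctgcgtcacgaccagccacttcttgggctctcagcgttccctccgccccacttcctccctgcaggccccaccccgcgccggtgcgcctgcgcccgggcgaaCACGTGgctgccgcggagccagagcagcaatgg
Rrn3: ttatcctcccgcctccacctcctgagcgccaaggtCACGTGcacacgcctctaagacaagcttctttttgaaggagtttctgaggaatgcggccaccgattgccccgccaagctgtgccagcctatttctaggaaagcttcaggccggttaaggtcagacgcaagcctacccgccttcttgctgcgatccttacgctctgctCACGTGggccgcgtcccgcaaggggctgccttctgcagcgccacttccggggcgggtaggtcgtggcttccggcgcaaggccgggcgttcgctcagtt
Polr1b: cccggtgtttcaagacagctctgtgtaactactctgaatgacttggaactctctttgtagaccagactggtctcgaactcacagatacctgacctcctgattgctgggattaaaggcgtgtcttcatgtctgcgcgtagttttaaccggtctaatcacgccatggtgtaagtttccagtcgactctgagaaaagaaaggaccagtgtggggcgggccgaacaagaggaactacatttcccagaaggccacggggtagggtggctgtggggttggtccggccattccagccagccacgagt

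In GRCm38.p6 the Nop2 window is chr6:125131633-125131932 on the plus strand, and its hexamer begins 60 bases before the start. The Utp20 window is chr10:88826765-88827064 on the minus strand, with the hexamer from base 38 after the start. The Wdr43 window is chr17:71615965-71616264 on the plus strand, with the hexamer from base 18 after the start. The Rrn3 window is chr16:13780449-13780748 on the plus strand, with copies that begin 215 and 48 bases before the start. The Polr1b window is chr2:129100746-129101045 on the plus strand. The 1 uM differences of these genes were 1.35 for Nop2, 1.04 for Utp20, 0.77 for Wdr43, 0.38 for Rrn3 and 2.02 for Polr1b.

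RNA polymerase I held the largest difference of the 56 genes. Polr1b, a core catalytic subunit, had a log2 level of -1.44 in untreated cells, -1.51 at 0.01 uM and 0.58 at 1 uM. The 1 uM array stood alone above 2 nearly equal ones, 4.07-fold (log2 2.02, SE 0.24) above untreated. Its probe lies at chr2:128951870-128951929 in build mm9, as the array files give it, and a further Polr1b probe was not above background on any array. Polr1e, an accessory subunit with a role in initiation, had levels of -1.85, -1.90 and -0.35 (probe at chr4:45044243-45044302, mm9). That is 2.82-fold higher at 1 uM (log2 1.497, SE 0.25), again with 0.01 uM beside untreated.

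The other subunits and the initiation factor differed less. Polr1a, the largest subunit, had levels of 2.31, 2.28 and 2.83, a difference of 0.52 (SE 0.20) at 1 uM. Rrn3, which bridges the polymerase to its promoter complex, had levels of 1.58, 1.60 and 1.96. Its difference of 0.38 came from the brighter of its probes, while the dimmer probe gave -0.082. Polr1c, which RNA polymerase III also contains, had levels of 4.71, 4.84 and 4.59. It was highest at 0.01 uM and lowest at 1 uM, by -0.13 from untreated, and positive under quantile, loess and spike-in scaling (0.068, 0.026 and 0.55). Of these 5 genes 2 passed 1.5-fold at 1 uM, and the median difference was 0.52.

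Proteins of the small nucleolar RNA particles and their assembly had the highest median of the 5 groups at 1 uM, 0.97 over 6 measured genes, and 5 of 7 compared passed 1.5-fold. The C/D particles, which methylate ribosomal RNA, share the proteins Nop56, Nop58 and Fbl. Nop56 had levels of 3.73, 3.68 and 4.86, which is 2.20-fold higher at 1 uM than in untreated cells (log2 1.14, SE 0.20). Its dimmer probe gave a difference of 2.15, so the probes differ by 1.01 on the log2 scale and the size of the Nop56 difference is uncertain. That probe had an untreated level of -2.92, close to the lowest detected signal of that array (-3.02), and was not above background at 0.01 uM. Nop58 had levels of 2.96, 2.92 and 3.57, a 1.53-fold difference. Fbl, fibrillarin, the methyltransferase, had levels of 5.82 and 5.88 and a saturated spot at 6.39 on the 1 uM array, so it was at least 1.48-fold higher there. All 3 had their highest level at 1 uM.

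The H/ACA particles, which convert uridine to pseudouridine, were uneven. Nhp2, a core protein, had levels of 1.97, 1.93 and 2.95, which is 1.96-fold higher at 1 uM (log2 0.97, SE 0.20). Nop10, its partner in the same particle, had levels of 4.46, 4.36 and 4.41, a difference of -0.054 that was above 0 (0.0085 to 0.62) under the 5 other scalings. Nolc1, a chaperone of these particles, had levels of 0.71, 0.46 and 1.68, which is 1.95-fold higher at 1 uM (log2 0.97). Its dimmer probe gave 0.38. Outside the H/ACA particles, Rrp9 is a protein of the particle that guides the first cuts of the precursor. It had levels of -0.28, -0.20 and 0.70, which is 1.98-fold higher at 1 uM (log2 0.98, SE 0.21).

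**Figure D3:**
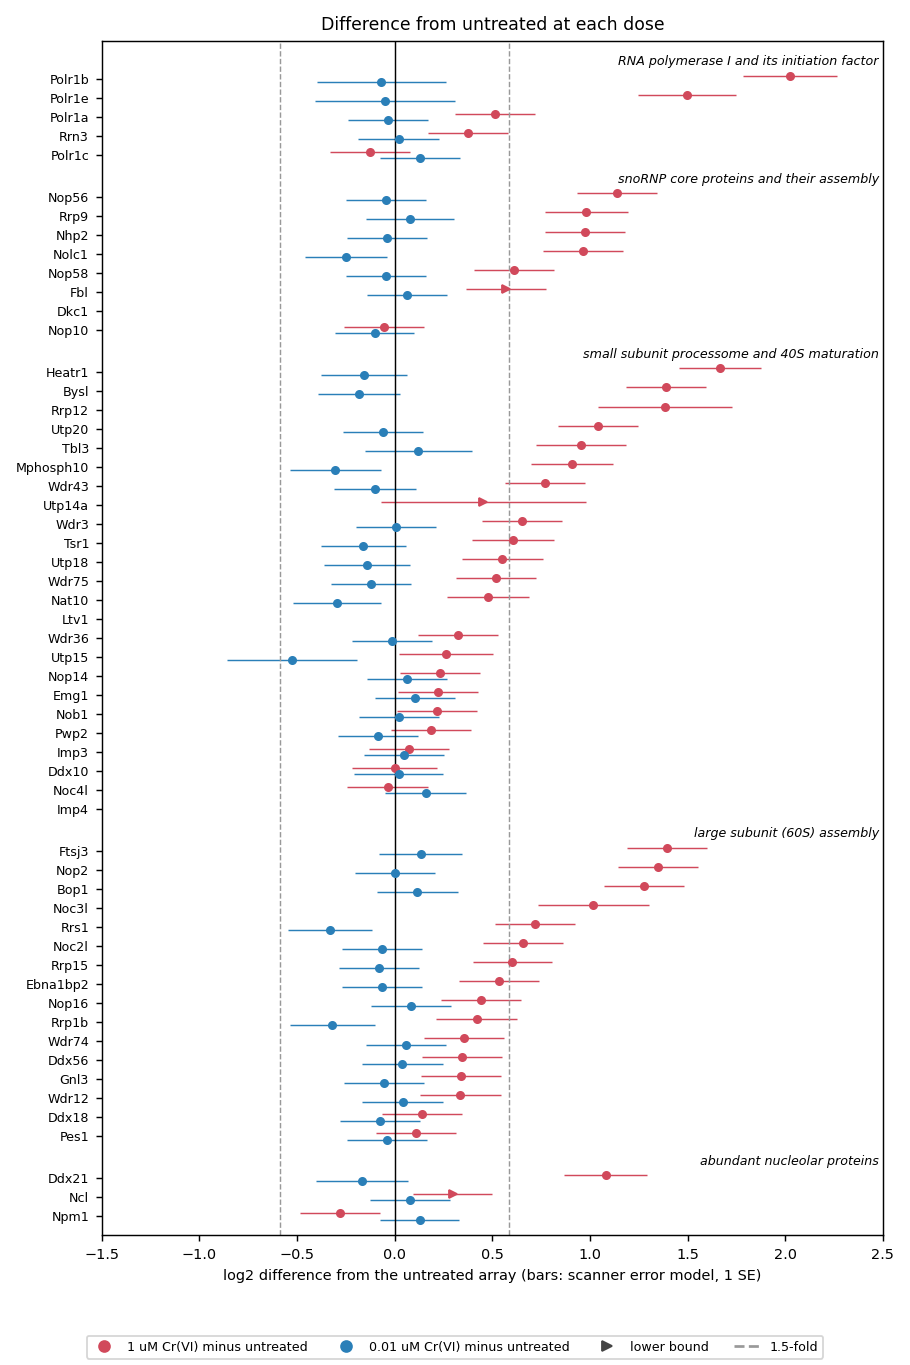
Log2 difference from the untreated array (horizontal axis) for each gene (rows, by function) at 1 uM and 0.01 uM Cr(VI); bars are 1 SE of the scanner's error model, triangles are lower bounds and dashed lines mark 1.5-fold. The 0.01 uM points, drawn for the 50 genes measured on both arrays, all lie within 1.5-fold of 0. Of the 1 uM points, 24 lie to the right of the upper line, up to 2.02 for Polr1b.

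Of 23 small subunit genes compared, 9 were higher by 1.5-fold at 1 uM and 4 of these by 2-fold, with a median of 0.52 over 21 measured genes. Heatr1, a large scaffold protein that links transcription of the precursor to its processing, had levels of -0.051, -0.21 and 1.62 (probe at chr13:12530153-12530858, mm9, a span that is longer than the probe). It was 3.17-fold higher at 1 uM than in untreated cells (log2 1.67, SE 0.21), and 0.01 uM was the lowest array. Bysl, bystin, a factor of the pre-small-subunit particle, had levels of 1.14, 0.95 and 2.53 (chr17:47738282-47738341, mm9). Its 3 probes gave differences of 1.39, 1.45 and 1.33 at 1 uM, so they agreed in sign and in size.

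Rrp12, which takes part in export of the pre-ribosomes, had levels of -2.73 in untreated cells and -1.35 at 1 uM, and was not well above background at 0.01 uM. Its difference of 1.39 has an SE of 0.34, with a low signal on each array. Utp20, a scaffold of the small subunit processome (the assembly that folds and cuts the small subunit precursor), had levels of 1.49, 1.43 and 2.53, a 2.06-fold difference (log2 1.04, SE 0.20). In each of these 4 genes the 1 uM array alone was high.

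Within known subcomplexes of the processome the differences were uneven. The subcomplex that binds the precursor first holds Heatr1 together with Wdr43, Wdr75 and Utp15. Wdr43 had levels of 1.01, 0.91 and 1.78 (difference 0.77, and 0.91 from a further probe). Wdr75 had levels of 1.40, 1.27 and 1.91 (difference 0.52). Utp15 had levels of -1.05, -1.57 and -0.78, so that its difference was 0.26 from untreated cells and 0.79 from 0.01 uM. Its 0.01 uM difference, -0.53 (SE 0.33), was the lowest of that comparison.

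The next subcomplex holds Tbl3, Wdr3, Utp18, Wdr36 and Pwp2. Tbl3 had levels of -1.35, -1.22 and -0.39, a 1.94-fold difference at 1 uM (log2 0.95, SE 0.23). Wdr3 had levels of 1.37, 1.38 and 2.02 (0.65). Utp18 lay just below 1.5-fold, with levels of 0.17, 0.032 and 0.73 (0.55). Wdr36 and Pwp2 differed by 0.32 and 0.19. All 5 had their highest level at 1 uM, and 2 of the 5 passed 1.5-fold.

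A further subcomplex joins Mphosph10, Imp3 and Imp4. Mphosph10 had levels of -0.14, -0.45 and 0.77, a 1.88-fold difference (log2 0.91), and a dimmer probe gave 0.32. Imp3 was almost level, at 4.29, 4.34 and 4.36. Imp4 gave no difference, since only its untreated signal, -2.84, was above background. Among the partners Nop14 and Noc4l, Nop14 differed by 0.23, with a dimmer probe at -0.22, and Noc4l had levels of 0.67, 0.82 and 0.63. Noc4l was the lowest small subunit gene at 1 uM, with -0.035 from untreated cells, a sign that turned under 3 of the 5 other scalings (0.031 and 0.028 with detected probes, 0.64 with spike-ins).

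Among the remaining small subunit genes, Tsr1, which acts on late particles in the cytoplasm, lay just above 1.5-fold, with levels of 0.23, 0.071 and 0.84 (log2 0.61, SE 0.21). Nat10, an RNA acetyltransferase, had levels of 0.074, -0.22 and 0.55 (0.48 from untreated cells and 0.78 from 0.01 uM). Emg1, a methyltransferase, and Nob1, the nuclease that makes the last cut of the small subunit RNA, differed by 0.22 and 0.21. The helicase Ddx10 was level on all arrays, at -0.36, -0.34 and -0.36. Utp14a was above background only at 1 uM. The lower bound of its difference from untreated cells was 1.37-fold (log2 0.45), with an SE of 0.52 that is larger than the difference.

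All 16 large subunit genes were measured in untreated and 1 uM cells, and all 16 were above 0 at 1 uM, with a median of 0.49. Of these, 7 passed 1.5-fold and 4 passed 2-fold. Ftsj3, a ribosomal RNA methyltransferase, had levels of 0.35, 0.48 and 1.74, which is 2.63-fold higher at 1 uM (log2 1.39, SE 0.21). Nop2, another RNA methyltransferase and a marker of proliferating cells, had levels of 2.31, 2.31 and 3.66 (chr6:125094661-125094720, mm9). It was 2.55-fold higher (log2 1.35, SE 0.20), while 0.01 uM and untreated differed by 0.0016. Noc3l, which moves with the early large subunit particles, had levels of -2.19 and -1.17 in untreated and 1 uM cells and was not well above background at 0.01 uM. That is a 2.03-fold difference (log2 1.02, SE 0.28), just past 2-fold.

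The complex of Bop1, Pes1 and Wdr12, which is needed to process the large subunit RNA, was uneven. Bop1 had levels of 1.13, 1.25 and 2.41, which is 2.42-fold higher at 1 uM (log2 1.28, SE 0.21). Wdr12 had levels of 1.09, 1.13 and 1.42 (0.34). Pes1 had levels of 2.98, 2.94 and 3.09 (0.11), and its dimmer probe, at 1.15, 1.17 and 0.83, gave -0.32. So Bop1 passed 2-fold, Wdr12 stayed under 1.5-fold, and the sign of Pes1 depends on the probe.

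Rrs1, which helps recruit the smallest ribosomal RNA of the large subunit, had levels of 0.72, 0.39 and 1.44 (0.72 from untreated cells and 1.05 from 0.01 uM). Noc2l, a partner of Noc3l, had levels of 3.74, 3.68 and 4.40 (0.66). Rrp15 lay just inside 1.5-fold, with levels of 1.87, 1.79 and 2.47 (0.60), and Ebna1bp2 just outside it, with 3.19, 3.12 and 3.72 (0.53). In all 4 the 0.01 uM array was the lowest on the 75th-percentile scale. Rrp1b had levels of 0.40, 0.084 and 0.82. Its probes agreed at 1 uM (0.42, 0.55 and 0.55) and disagreed at 0.01 uM, where they gave -0.32, -0.23 and 0.52. Nop16, Wdr74, Ddx56, Gnl3 (nucleostemin) and Ddx18 differed by 0.44, 0.36, 0.35, 0.34 and 0.14.

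Among the abundant nucleolar proteins, Ddx21, a helicase that acts in ribosomal RNA transcription and processing, had levels of -0.38, -0.54 and 0.70. It was 2.12-fold higher at 1 uM than in untreated cells (log2 1.08, SE 0.21), and a dimmer probe gave 0.94. Ncl, nucleolin, had levels of 6.08 and 6.16 and a saturated 6.38 at 1 uM. A further probe, not saturated, had levels of 5.80, 5.82 and 6.16, a difference of 0.36. Another had 0.17, 0.32 and 0.46, a difference of 0.29. Npm1, nucleophosmin, a chaperone of the nucleolus, had levels of 5.81, 5.94 and 5.53 (chr11:33052565-33052624, mm9). It had the lowest measured difference of all at 1 uM, -0.28 (SE 0.20), with -0.23 from its other probe, and it was above 0 (0.40) under spike-in scaling alone.

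The 1.5-fold line cuts through a dense part of the list. Rrp15 (0.60) and Tsr1 (0.61) lay just inside it and Utp18 (0.55) and Ebna1bp2 (0.53) just outside, gaps well under 1 SE. At the 2-fold line Noc3l (1.02) and Utp20 (1.04) lay inside and Rrp9 (0.98) and Nhp2 (0.97) outside. Between 1 uM and 0.01 uM, 6 more genes passed 1.5-fold than between 1 uM and untreated, namely Utp15, Nat10, Rrp1b, Utp18, Wdr75 and Ebna1bp2, with differences from 0.60 to 0.79. All 6 were lower at 0.01 uM than in untreated cells, by -0.53 for Utp15 to -0.067 for Ebna1bp2, but of the 6 only Utp15 and Rrp1b stayed lower under spike-in scaling.

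The spread among the genes was wide at 1 uM and narrow at 0.01 uM. Over the 48 genes measured on all arrays the SD of the log2 differences was 0.51 at 1 uM and 0.14 at 0.01 uM, against 0.59 and 0.19 over all genes. Differences at 1 uM were larger where the probe signal was low. In the 9 genes with an untreated level below 0 the median 1 uM difference was 0.98, in the 24 between 0 and 2 it was 0.54, and in the 15 above 2 it was 0.23. Over all genes in these ranges the medians were 0.069, -0.028 and -0.14, and 18.5%, 9.7% and 4.3% passed 1.5-fold. Across the 48 genes, Spearman's rho of untreated signal and 1 uM difference was -0.45 and Pearson's r -0.52. Across all genes rho was -0.20. These describe genes of the same arrays, which are no independent replicates, and both axes hold the untreated signal. The part of probe brightness in the differences was not tested.

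Probes to the same gene mostly gave like differences at 1 uM. Of 18 genes with at least 2 probes measured on both arrays, 17 had probes within 1.5-fold of each other, and 15 had probes of the same sign. The exception in size was Nop56, and the exceptions in sign were Rrn3, Nop14 and Pes1. The dimmer probes of Nop56, Rrn3 and Nop14 had low untreated levels (-2.92, -2.30 and -2.41) and were not above background at 0.01 uM. That of Pes1 was brighter (1.15). In Nolc1 (0.97 and 0.38), Mphosph10 (0.91 and 0.32) and Tsr1 (0.61 and 0.46) the brightest probe passed 1.5-fold and a dimmer probe did not. The median spread between probes was 0.14. At 0.01 uM, where differences were near 0, probes had the same sign in 7 of 12 genes.

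**Figure D4:**
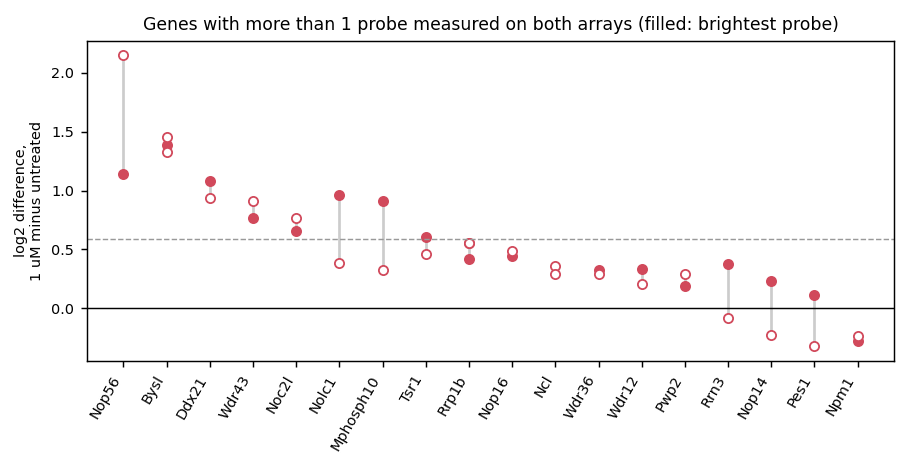
Log2 difference of 1 uM from untreated (vertical axis) for the 18 genes with more than 1 unsaturated probe measured on both arrays (horizontal axis); filled points are the brightest probe, open points the others, and the dashed line marks 1.5-fold. The probes of Bysl lie together between 1.33 and 1.45, those of Nop56 lie at 1.14 and 2.15, and those of Rrn3, Nop14 and Pes1 lie on both sides of 0.

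Other genes of the pathway, from lists also drawn up with results of these arrays known, were read the same way. Over all genes, 13.9% were higher and 13.4% lower by 1.5-fold at 1 uM, the background of each count. Among 83 other ribosome assembly factors, 19 (22.9%) stood above untreated by 1.5-fold at 1 uM and 3 below, with a median of 0.24, which lies between the median of the chosen genes and that of all genes. Mdn1, the giant ATPase of large subunit assembly, had levels of 0.87, 0.62 and 2.21, which is 2.53-fold higher at 1 uM than in untreated cells (log2 1.34). Ppan had levels of 2.68, 2.75 and 3.68 (1.01). Sbds, which frees the large subunit for translation, had levels of 3.70, 3.70 and 2.71. It was the lowest of this list, at -0.99, and its 1 uM array alone was low. Nol9, Urb1 and Urb2, at least 2-fold above the 0.01 uM array, differed from untreated cells by 0.84, 0.96 and 0.99.

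Of 13 other RNA polymerase I subunits and factors, 2 (15.4%) passed 1.5-fold upward at 1 uM and 1 downward, with a median of 0.038. Taf1d, of the promoter selectivity factor, had levels of 1.15, 0.55 and 2.67, which is 1.52 above untreated cells at 1 uM and -0.59 from them at 0.01 uM, on either side of the untreated level. Polr2e, a subunit shared by all 3 nuclear polymerases, had levels of 4.91, 5.01 and 4.29 (-0.62). Of 20 RNA polymerase III genes 2 (10%) passed it upward and 0 downward, with a median of 0.15. Polr3e was the highest, at -0.93, -1.57 and 0.015 (0.95), and Maf1, the repressor of that polymerase, the lowest, at 4.28, 4.44 and 3.70 (-0.58).

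Of 14 genes of the RNA exosome, which trims the precursor, 3 (21.4%) passed 1.5-fold upward and 0 downward at 1 uM, with a median of 0.32. Dis3, its nuclease, had levels of 1.37, 1.16 and 2.32 (0.95), Exosc1 differed by 0.90, and Mphosph6 by -0.38. Of 7 snoRNA host genes, whose introns carry the guide RNAs, 1 passed it in each direction. Snhg1 had levels of -2.04, -1.85 and -0.22, which is 3.51-fold higher at 1 uM (log2 1.81), and Zfas1 had 5.51, 5.54 and 4.88 (-0.63). Of 10 genes listed under ribosomal DNA silencing and nucleolar chromatin, 3 (30%) passed it upward and 1 downward, with a median of 0.19. Dnmt1, a DNA methyltransferase, differed by 0.74 and Phf8, a histone demethylase, by -0.75. Cdkn2aip, also counted upward though its part in these functions is uncertain, differed by 0.66 at 1 uM and -0.81 at 0.01 uM.

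Myc itself had RNA levels of 3.61, 3.69 and 3.41, a difference of -0.20 from untreated cells at 1 uM. Its SE was 0.065, against a median of 0.206 over all genes. This technical error falls with the number of spots averaged for a probe and holds no spread between cultures. Under spike-in scaling, which adds 0.68, the Myc difference was above 0. Of 11 genes of the Myc network 0 passed 1.5-fold upward and 4 downward, and their median was -0.49, which was 0.19 under spike-in scaling. Mxi1, a Max partner that opposes Myc, had levels of 3.68, 3.88 and 2.67 (2.02-fold lower), Mxd4, another, had 1.88, 2.15 and 1.05 (-0.83), and Mlx had the highest difference, 0.14. These are RNA levels, and Myc protein was not measured.

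The cytosolic ribosomal proteins, the products that these factors assemble, had a median below 0 on the 75th-percentile scale. Many of their probes were saturated, and only 21 of 80 genes compared could be measured on both arrays. No count past 1.5-fold is given, since saturated genes could not pass. The median of the 21 was -0.34, or 0.34 under spike-in scaling. The list was drawn by gene symbol, so it also holds like-named genes such as Rpl7l1, which was the highest, with 0.23. Rpl21 was the lowest, with levels of 2.97, 3.00 and 1.86 (-1.10). Probes of ribosomal proteins can also detect RNA of their many pseudogenes, so single values are uncertain. Of 78 mitochondrial ribosomal proteins 2 (2.56%) passed 1.5-fold upward and 1 downward, and their median was -0.018, which was above 0 (0.044 to 0.66) under the other 5 scalings. Mrpl12 differed by 0.67 and Mrps12 by -0.95.

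Proliferation genes were read beside them. Of 17 genes of DNA replication and proliferation, 4 (23.5%) passed 1.5-fold upward at 1 uM and 0 downward, where 13.9% and 13.4% of all genes did, with a median of 0.39. Ccne1, cyclin E, had levels of 2.30, 2.39 and 3.46 (1.17), and Rrm1 was the lowest, with -0.21. Their part in the differences of the ribosome biogenesis genes was not tested. At 0.01 uM the medians of all 10 lists lay between -0.038 and 0.14.

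**Figure D5:**
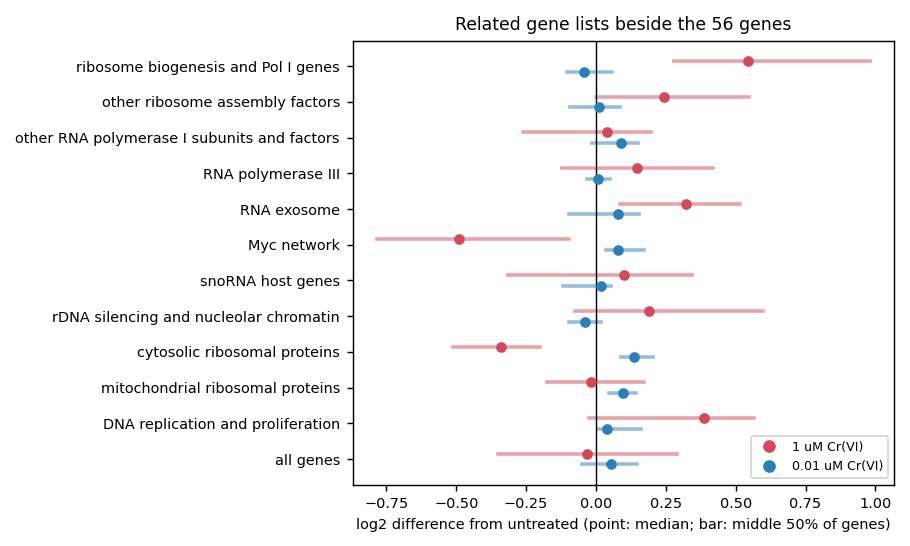
Median log2 difference from untreated cells (points) and the middle 50% of genes (bars) for the 56 genes, 10 related lists and all genes, at 1 uM and at 0.01 uM Cr(VI); the horizontal axis is log2 on the 75th-percentile scale. At 1 uM the medians run from -0.49 (Myc network) to 0.54 (the 56 genes), and at 0.01 uM all lie near 0.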

How the data were processed

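Gene expression was measured on 3 Agilent 1-colour arrays of 1 design, 1 per group. Spot intensity was extracted with Agilent Feature Extraction 10.5.1.1, per the file headers, which give processed signal with background subtracted and an error model. The authors' deposited value table holds log2 values that equal log2 processed signal minus the array's 75th percentile, within 0.01 for 99.8% or more of probes (column medians -4.23, -3.96 and -4.03). Its scale and centring were found this way, and its direction is that of the signal on each array.

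Control and outlier-flagged spots were left out, spots of a probe averaged, log2 taken and each array's 75th percentile subtracted. Probes were named through RefSeq accessions (25094), symbols (6332) or synonyms (1640) of assembly GRCm38.p6, and 8101 kept the file's name. A gene is its brightest probe over the 3 arrays. A comparison needs a signal well above background on either array. With the other array below it, the fold given is a minimum against the higher of its value and the array's lowest detected signal (-3.02, -2.11 and -2.80 on the untreated, 0.01 uM and 1 uM arrays). A gene whose detected signal lies below the value used for the other array counts as no difference and stays among the genes compared. Saturation on 1 array likewise leaves a minimum, and saturation on both counts as no difference. Thresholds were 1.5-fold (log2 0.585) and 2-fold. No p-value was computed, since each group is 1 array.

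The genes and lists were chosen with earlier results of these data known. Values on every array are given for genes at least 1.5-fold apart in any comparison (up to the 25 largest at 1 uM), the highest and lowest of each role, genes with disagreeing probes and genes next to a threshold. From each related list the highest, the lowest, any gene past 2-fold, and Myc are named. Other values are given as examples chosen after they were seen. The counting was checked on simulated data with noise near the SD of replicate spots and no saturation. That check does not cover the larger error of the scanner's error model or the spread between cultures. The number of arrays limits the precision. Alternatives (13) were other scalings, normexp (limma 3.58.1 in R 4.3.3, offset 50), filters, the mean of probes, naming by the file's symbols, outlier spots kept, the deposited table and leaving out saturated genes. Python 3.11.15, numpy 2.4.6, pandas 2.3.3 and statsmodels 0.14.6 were used. Whether a probe lies in a coding exon or a UTR was not determined here.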

Additional observations from a re-analysis of the deposited data

How the results depend on the processing

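Of 234 summary values recomputed under 13 alternatives, 220 stayed within the technical error or, for counts, within 1.5 times. The error used for medians was the median SE of a single gene, and counts of 0 mostly stayed 0. That share therefore says little about stability. Under spike-in scaling the median of the ribosome biogenesis genes was 1.22 at 1 uM, 0.26 at 0.01 uM and 1.05 for 1 uM against 0.01 uM, and 51 genes were at least 1.5-fold (53.8% of all genes) and 38 at least 2-fold (24.8%) higher at 1 uM, with 29 at least 2-fold above 0.01 uM (11.3%); this alternative moves every gene of an array by 1 constant. With no filter on dim probes the median minus that of all genes was -0.44 at 0.01 uM and 1.35 for 1 uM against 0.01 uM, and 3 genes were at least 1.5-fold and 1 at least 2-fold lower at 0.01 uM; the cause was not tested. With the 75th percentile of detected probes, 1 gene was 1.5-fold lower at 0.01 uM. With the mean of a gene's probes, 3 genes were 1.5-fold lower at 0.01 uM, 1 at 1 uM (Ddx10, -0.88), and 9 were at least 2-fold above 0.01 uM; that alternative includes probes not above background. Apart from spike-in scaling, the count of genes at least 1.5-fold higher at 1 uM ran from 22 (mean of probes) to 28 (quantile normalization). Of the 24 genes reported, 21 stayed past 1.5-fold under every alternative that gave a value. The others were Tsr1 (0.52 under normexp and 0.53 with the mean of probes), Rrp15 (0.41 with the mean of probes) and Ddx21 (0.40 with the mean of probes). No gene past 1.5-fold changed sign. Over all genes the split past 1.5-fold for 1 uM against 0.01 uM, 1491 higher and 2088 lower, became 1810 and 1577 under loess, 1985 and 1543 with the percentile of detected probes only, and 3367 and 831 under spike-in scaling; for 0.01 uM against untreated, 107 and 135 became 76 and 182 with that percentile and 658 and 36 under spike-in scaling. No paired analysis was possible because each group holds 1 array. Genes near background (Rrp12, Noc3l, Utp14a) and saturated genes (Fbl, Ncl) limit what the signal can show.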
